A study of Mus musculus with 4 samples.

Results

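Tissue macrophages and monocytes were followed in chemically induced mouse mammary tumours through 46 listed genes, chosen as macrophage receptors, complement genes, genes of the CSF1 axis and lysosomal genes. A gene was measured when a probe set carried its symbol and no other, and its brightest such probe set was used. This held for 45 of the 46 members, out of 12393 genes with such a probe set. Ear2 was the exception, and 36 of the 45 had a mean at least as high as the median gene. The rule names the genes by function and uses no measured value, but the list was drawn up with earlier results of these data known.

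The mice were nulliparous FVB females, either wild type (WT) or carrying MMTV-PAX8PPARg. This transgene joins the transcription factor PAX8 to the nuclear receptor PPARg behind the mouse mammary tumour virus promoter, which drives expression in mammary epithelium. All 4 groups received 15 mg MP (Depo-Provera, a progestin) under the skin, followed by 4 weekly gavage doses of 1 mg DMBA, a carcinogen. Pellets with a 60-day release were then implanted and renewed once, holding either placebo or 2.5 mg RU486 (mifepristone), a blocker of the progesterone and glucocorticoid receptors. The 4 groups were thus WT with placebo, WT with RU486, PAX8PPARg with placebo and PAX8PPARg with RU486, each with 1 Affymetrix array of RNA pooled from 5 mice. Precision is limited by this number of arrays, since the spread between mice is unknown and differences between single arrays could not be tested. Values are deposited signals in arbitrary units, given in that same order unless stated. Differences are in log2(signal + 16) after each array was centred on its median, so that 1 is a 2-fold difference.

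Macrophages depend on the growth factor CSF1, which binds the receptor CSF1R and, with the transcription factor PU.1 (Spi1), sets their number and identity. They clear dying cells, immune complexes and lipoproteins through scavenger and Fc receptors, secrete complement C1q and digest what they take up in lysosomes. In the mammary gland they lie along ducts and in the fat pad, and they are a common part of mammary tumours.

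The WT RU486 array stood apart from the others before any macrophage gene was considered. Luminal epithelial genes, which mark the cells a mammary tumour label implies, had a summed signal of 6770.0 there against 39035 to 46033 on the other arrays, and 13 of 14 were at least 2-fold lower than under WT placebo. Krt7 read 112 on that array, and 2 of the 14, Cldn4 and Elf3, named after their values were seen, were within the background range. In what follows a signal is called within the background range when it does not exceed the brightest of the array's 27 bacterial controls, which was 9.6, 18.5, 8.3 and 35.3. Hybridisation spike-ins were brighter than under WT placebo by a median of 1.59 times in the WT RU486 pool and 2.43 times in the PAX8PPARg RU486 pool. Pax8 signals were in the background range in every pool. Pparg read 75.9, 35.4, 497.5 and 13.2, high in the PAX8PPARg placebo pool and in the background range in the PAX8PPARg RU486 pool. The summed signal of 10 adipocyte genes was 11355, 4376, 29792 and 4356, also highest in the PAX8PPARg placebo pool. The part of adipocytes in the Pparg values was not tested. No source used here says whether the Pax8 or Pparg probe sets detect the fusion transcript, so the transgene was not checked. With 1 array a group, no value can be given without the array concerned.

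Most genes of the macrophage list were highest in the WT RU486 pool. Of the 45 members, 40 were brightest there, against 31.7% of all genes. The PAX8PPARg RU486 pool was brightest for 1, Chil3 (29.2% of all genes), the WT placebo pool for 0 (23.0%), and the PAX8PPARg placebo pool for 4, Marco, Retnla, Ear3 and Gpnmb (1985 of the 12393 genes). The WT RU486 pool was at least 2-fold above each of the 3 others for 31 members, against 3.76% of all genes. Of the 36 members with higher levels 25 did so, against 3.66% of genes at such levels. The 3 other arrays lay within 2-fold of each other for 30 of the 45 members, 23 of them among these 31, against 76.0% of all genes and 85.1% of genes at or above the median level. The median spread over those 3 arrays was 0.74 log2 for the members and 0.49 for genes at or above the median level, so the members were not more alike there than other genes. In bulk tissue, more cells of a type and more RNA per cell cannot be told apart. The summed signal of the 45 genes was 45820.3, 158274, 52670 and 47948.

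**Figure D1:**
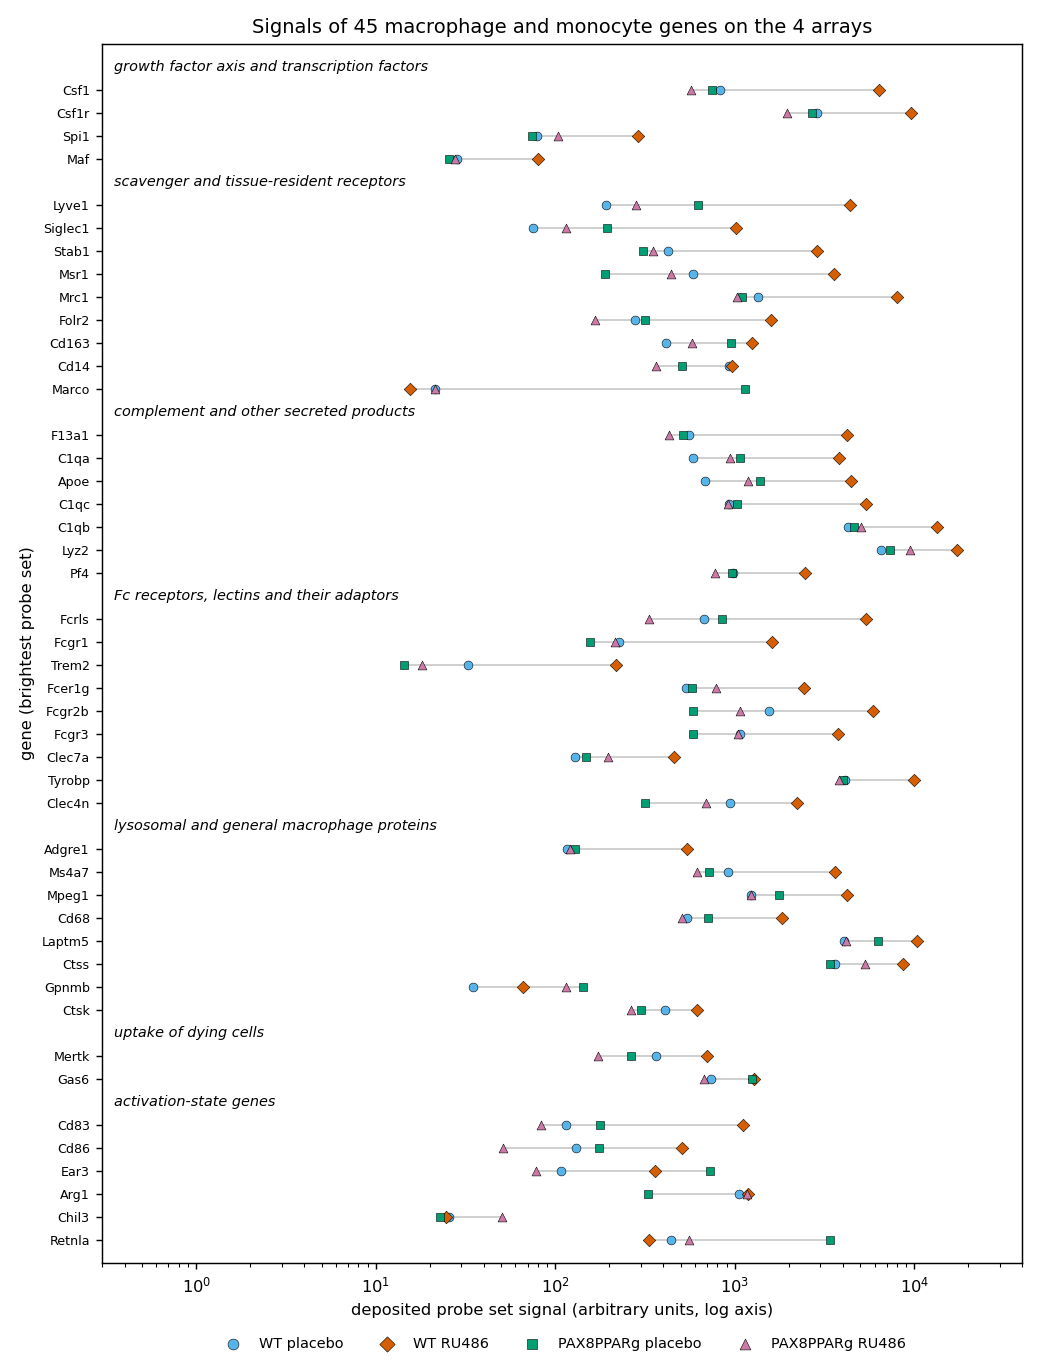
Deposited signals (log axis, arbitrary units) of the 45 measured genes, 1 row a gene and 1 point an array, grouped by role; each array is 1 pool of 5 mice, so there are no error bars. The orange diamonds of the WT RU486 array lie to the right of the other points for 40 of 45 genes, while Marco and Retnla are brightest on the PAX8PPARg placebo array.

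Promoter sequence was compared because so many members were high on the same array. RefSeq promoter windows (GRCm38.p6, 250 bases before to 50 after the gene start) matched 31 of the 46 members by symbol. The PU.1 box was searched as GAGGAAGT on both strands, its reverse complement being ACTTCCTC. It was present for 5 of these 31 genes, and in 3.20% of all 32851 windows and 3.69% of the 27025 genes that have one. The 5 windows follow, 5′ to 3′ along the gene, with the match in capitals. They hold 4 genes that were high on the WT RU486 array and 1, Retnla, that was not. A match is a description of the letters only.
C1qc (chr4:136892865-136893164, minus strand): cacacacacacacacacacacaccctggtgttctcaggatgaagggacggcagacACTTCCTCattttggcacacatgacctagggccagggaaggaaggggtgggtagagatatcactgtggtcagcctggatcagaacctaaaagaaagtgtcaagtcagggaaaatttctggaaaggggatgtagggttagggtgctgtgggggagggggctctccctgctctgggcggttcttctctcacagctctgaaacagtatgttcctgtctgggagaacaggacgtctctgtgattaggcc
F13a1 (chr13:37049164-37049463, minus strand): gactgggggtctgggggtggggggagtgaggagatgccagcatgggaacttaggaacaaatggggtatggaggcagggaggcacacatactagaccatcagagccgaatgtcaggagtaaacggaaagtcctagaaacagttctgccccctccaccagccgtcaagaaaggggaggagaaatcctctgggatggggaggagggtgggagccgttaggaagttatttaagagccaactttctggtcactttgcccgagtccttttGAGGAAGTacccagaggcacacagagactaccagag
Pf4 (chr5:90772185-90772484, plus strand): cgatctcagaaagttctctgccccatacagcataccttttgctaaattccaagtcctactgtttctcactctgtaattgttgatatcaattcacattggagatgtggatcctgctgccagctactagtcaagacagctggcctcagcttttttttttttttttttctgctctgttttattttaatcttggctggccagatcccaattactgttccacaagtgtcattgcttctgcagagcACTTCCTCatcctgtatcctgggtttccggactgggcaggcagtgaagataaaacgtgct
Ctss (chr3:95526536-95526835, plus strand): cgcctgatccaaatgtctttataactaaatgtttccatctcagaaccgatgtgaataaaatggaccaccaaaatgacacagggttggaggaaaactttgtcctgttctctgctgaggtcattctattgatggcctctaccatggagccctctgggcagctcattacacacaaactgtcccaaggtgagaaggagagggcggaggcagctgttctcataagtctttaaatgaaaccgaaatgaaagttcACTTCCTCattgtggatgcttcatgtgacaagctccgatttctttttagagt
Retnla (chr16:48842359-48842658, plus strand): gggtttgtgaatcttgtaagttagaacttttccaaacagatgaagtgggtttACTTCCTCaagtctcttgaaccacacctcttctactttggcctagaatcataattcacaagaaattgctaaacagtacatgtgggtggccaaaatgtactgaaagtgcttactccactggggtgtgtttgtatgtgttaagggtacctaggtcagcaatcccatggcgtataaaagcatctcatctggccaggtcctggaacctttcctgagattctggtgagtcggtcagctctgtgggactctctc
The first base of the match lay at -195 in C1qc, -10 in Pf4, -2 in Ctss and -198 in Retnla relative to the gene start, and at 15 after it in F13a1.

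The first comparison asked how WT tumours differed between RU486 and placebo. Of the 45 members, 36 exceeded a 2-fold increase under RU486 and 0 were lower by 2-fold, against 7.45% higher and 8.85% lower among all genes. The median difference was 1.74 log2, against 0.01 over all genes. Among the 36 members at or above the median level, 30 were at least 2-fold higher, against 5.50% of the genes at that level. The 9 members within 2-fold were Cd14, Marco, Ctsk, Gpnmb, Arg1, Chil3, Retnla, Gas6 and Mertk.

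The second asked the same of PAX8PPARg tumours, on a different pair of arrays. Here 3 members were higher by 2-fold under RU486 and 5 lower, against 10.6% and 7.02% of all genes, with a median of -0.07. Among the members at or above the median level 3 were higher and 3 lower, against 5.05% and 5.10% of such genes. The members' counts were near the background in both directions. Members higher by 2-fold in WT and within 2-fold in PAX8PPARg numbered 31 of 45, against 5.45% of all genes. Another 2, Msr1 and Clec4n, were higher by 2-fold in both genotypes on their brightest probe sets (0.944% of all genes), a call that for Clec4n rests on 1 of its 2 probe sets, and 3, Fcrls, Ear3 and Cd86, were higher in WT and lower in PAX8PPARg (1.06%).

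**Figure D2:**
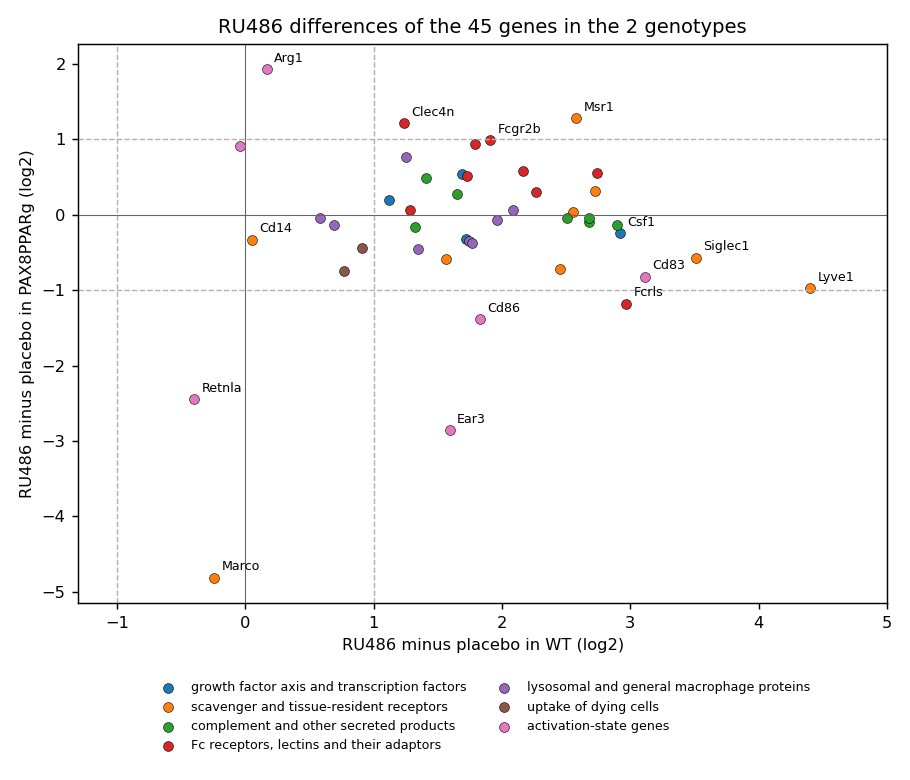
Difference of RU486 minus placebo (log2) in WT on the x axis and in PAX8PPARg on the y axis, 1 point a gene, coloured by role; dashed lines mark 2-fold. Most points lie right of the dashed line at 1 and between the horizontal ones, with Marco, Ear3 and Retnla far below and Arg1, Msr1 and Clec4n above.

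The growth factor axis came first among the roles, and all 4 of its genes were at least 2-fold higher with RU486 in WT. Csf1, the gene of the growth factor itself, read 830 in the WT placebo pool, 6366 in WT RU486, 744 in PAX8PPARg placebo and 568 in PAX8PPARg RU486. The receptor gene Csf1r read 2886, 9519.5, 2690.3 and 1954.5 in the same order. Each was therefore high on 1 array and differed by less than 2-fold among the other 3. All 4 Csf1 probe sets gave the same direction in WT, at 2.03 to 2.92 log2, and the 3 of Csf1r gave 1.72 to 2.72. Spi1, which encodes PU.1, read 78.7, 288, 73.7 and 103, a difference of 1.68 in WT and 0.54 in PAX8PPARg. Maf, a transcription factor of mature macrophages, read 28.4, 80.3, 25.7 and 27.5, and its PAX8PPARg RU486 value lay in the background range. Its difference of 1.12 in WT fell below 2-fold when signals were raised to the highest bacterial control (35 members then passed).

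Scavenger and tissue-resident receptors held the 2 largest differences of the list in WT, those of Lyve1 and Siglec1, with 7 of 9 at least 2-fold higher and a median of 2.55. Lyve1, a hyaluronan receptor of tissue macrophages and lymphatic endothelium, read 192, 4366, 625 and 282, a difference of 4.40 (its second probe set gave 4.11). Siglec1, the sialic acid receptor CD169, read 74.8, 1016, 195 and 114, and its 3 probe sets differed by 1.22 to 3.51 in WT. On these brightest probe sets PAX8PPARg minus WT under placebo was 1.43 and 1.03, but the second Lyve1 probe set gave 0.89 and the other Siglec1 probe sets 0.08 and 0.54, all under 2-fold. For lymphatic vessels, which share Lyve1, 0 of 6 measured genes were at least 2-fold higher with RU486 in WT. Lower by 2-fold were 2, Reln (-2.74) and Thy1 (-1.29), and Thy1 was also counted among the fibroblast genes. Fgl2 went the other way, at 0.46. The lymphatic transcription factor gene Prox1 was within the background range on both RU486 arrays. It read 10.6 under WT placebo, close to the background limit of 9.6 there, so it cannot show a difference in WT. Flt4 read 323 under WT placebo and 154 under WT RU486.

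Mrc1, the mannose receptor, read 1345, 7957, 1094 and 1023. Stab1, a receptor for modified lipoprotein and debris, read 422, 2870.4, 309 and 351, and Folr2, the folate receptor beta gene, read 279, 1594, 315 and 167. For these 3 the WT RU486 pool was at least 5-fold above the WT placebo pool, with folds of 5.86, 6.60 and 5.46. The haemoglobin scavenger receptor gene Cd163 had a smaller range, with 411.5, 1245, 956 and 575. Msr1, the class A scavenger receptor, read 582, 3554.5, 189 and 439. It was 1 of the 2 members higher with RU486 in both genotypes, by 2.58 in WT and 1.28 in PAX8PPARg, and its 4 probe sets ranged from 2.37 to 3.04 and from 0.66 to 2.02.

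Cd14 and Marco did not follow the list. The endotoxin co-receptor gene Cd14 read 933, 968, 507 and 363, so it differed by 0.05 with RU486 in WT and was lower in both PAX8PPARg pools. Marco, a scavenger receptor of marginal zone and lung macrophages, read 21.4, 15.6, 1135 and 21.4. The values on both RU486 arrays were within the background range, so the PAX8PPARg placebo pool was at least 20.5-fold brighter than the PAX8PPARg RU486 pool.

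Complement and other secreted products were at least 2-fold higher with RU486 in WT for all 7 genes and within 2-fold for all 7 in PAX8PPARg, with medians of 2.50 and -0.04. The C1q chains, whose genes C1qb, C1qc and C1qa lie next to each other on chromosome 4 in RefSeq's annotation, were alike. C1qa read 581.5, 3809.7, 1065 and 943, and C1qc read 929, 5346, 1030.0 and 910.5. C1qb read 4283, 13425, 4581 and 5057 on its brightest probe set, a difference of 1.65, while its dimmer probe sets gave 2.71 and 2.09. The brightest can match several transcripts by its name (_x_at).

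Apoe, which carries cholesterol out of macrophages, read 686, 4464, 1384 and 1183. F13a1, the subunit gene of coagulation factor XIII, read 557, 4236, 517 and 427, a difference of 2.89 in WT and -0.13 in PAX8PPARg. The lysozyme gene Lyz2 read 6560.1, 17387, 7340.0 and 9403, and the chemokine gene Pf4 read 975, 2460.5, 960.4 and 778. Lyz2 and Pf4, at 1.40 and 1.32, had smaller differences than the other 5 of this group.

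Fc receptors, lectins and their adaptors were at least 2-fold higher with RU486 in WT for all 9 genes, with a median of 1.91. Fcgr1, the high-affinity IgG receptor, read 227, 1604.5, 156 and 215.5. The inhibitory receptor gene Fcgr2b read 1559, 5887, 584 and 1067.5, and the nearby gene of an activating receptor, Fcgr3, read 1075, 3750.2, 588 and 1036. In PAX8PPARg, these last 2 differed by 0.99 and 0.93 on their brightest probe sets, just under 2-fold. Dimmer Fcgr2b probe sets gave 0.75, 0.88 and 1.21 there, the last of them past 2-fold. Both adaptors that relay the signals of such receptors followed, Fcer1g with 535, 2443, 574 and 787.5 and Tyrobp (DAP12) with 4097.5, 9974, 3995 and 3797.

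Among the lectins, the beta-glucan receptor gene Clec7a read 128, 461, 147 and 197. Clec4n (Dectin-2) read 936, 2222, 316 and 689, so RU486 was 1.23 above placebo in WT and 1.22 above it in PAX8PPARg on this probe set (_s_at). Its other probe set gave 1.71 in WT and 0.86 in PAX8PPARg, the latter under 2-fold. PAX8PPARg minus WT was -1.71 under placebo and -1.72 under RU486 on the brighter probe set. Trem2, a lipid receptor that signals through DAP12, read 32.8, 219, 14.3 and 18.1 on the brighter of its probe sets, whose name (_s_at) marks a possible match to several transcripts. Its other probe set lay at 4.8, 2.1, 17.8 and 15.8 and differed by -0.20 in WT, so the direction of Trem2 rests on 1 probe set. Fcrls, a mouse Fc receptor-like scavenger protein, read 675, 5389.7, 847 and 332, lower than placebo by 2.26-fold in PAX8PPARg.

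Lysosomal and general macrophage proteins had smaller differences, with 6 of 8 at least 2-fold higher in WT and a median of 1.54. Adgre1, which encodes the F4/80 antigen, read 116, 544, 128 and 121. The endosomal glycoprotein gene Cd68 read 538, 1835, 711 and 507, Mpeg1, a pore-forming protein of phagosomes, read 1229.8, 4213, 1752 and 1226, and Ms4a7 read 919, 3626, 717 and 618. Each of these 4 was high on the WT RU486 array alone. The lysosomal membrane gene Laptm5 read 4048.5, 10291, 6237 and 4155, and the protease gene Ctss read 3623, 8663, 3393 and 5276. Ctsk, a collagen-degrading cathepsin that osteoclasts and fibroblasts also make, read 406, 617, 298.5 and 264. Gpnmb, a glycoprotein of lipid-laden macrophages, read 35.0, 66.2, 142 and 115 and was the 1 gene of this group brighter in both PAX8PPARg pools than in either WT pool.

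Uptake of dying cells was represented by a ligand and its receptor, and both stayed within 2-fold in both genotypes. Gas6, the bridging ligand, read 741, 1275, 1252 and 677. Mertk, the receptor kinase that binds it, read 366, 702, 263 and 172.

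The activation-state genes went in several directions, with 3 of 6 at least 2-fold higher with RU486 in WT, and 1 higher and 3 lower in PAX8PPARg. Cd83, a maturation marker of dendritic cells and B cells that macrophages can also express, read 115, 1116, 177 and 83.5. The costimulatory gene Cd86 read 131, 506, 176 and 51.2, and both its probe sets were higher in WT (1.83 and 1.52) and lower in PAX8PPARg (-1.38 and -1.20). Arg1, the arginase gene, read 1058, 1189, 327 and 1175. It was thus low only in the PAX8PPARg placebo pool, and its RU486 difference was 0.17 in WT and 1.93 in PAX8PPARg. Chil3, a chitinase-like gene, read 25.6, 24.5, 22.7 and 50.4, and a probe set shared with its near-identical relative Chil4 was not used.

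Retnla, a secreted product of alternatively activated macrophages, read 441, 330.4, 3387 and 552. Ear3, an eosinophil-associated ribonuclease gene, read 108, 358, 728 and 77.9, on a probe set (_x_at) that near-identical members of its family may share. Both were highest in the PAX8PPARg placebo pool, as was Marco, and Marco and Retnla were there at least 2-fold above each other pool (2.27% of all genes). The eosinophil granule genes Epx and Prg2 were within the background range on all 4 arrays. In the same PAX8PPARg placebo pool 10 adipocyte genes had a summed signal of 29792, against 4356 to 11355 on the other arrays. B cell genes stood out there too, with Cd79a at 6.1, 22.3, 385 and 9.3. The part of adipocytes, lymphocytes and eosinophils in the Marco, Retnla and Ear3 values was not tested.

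**Figure D3:**
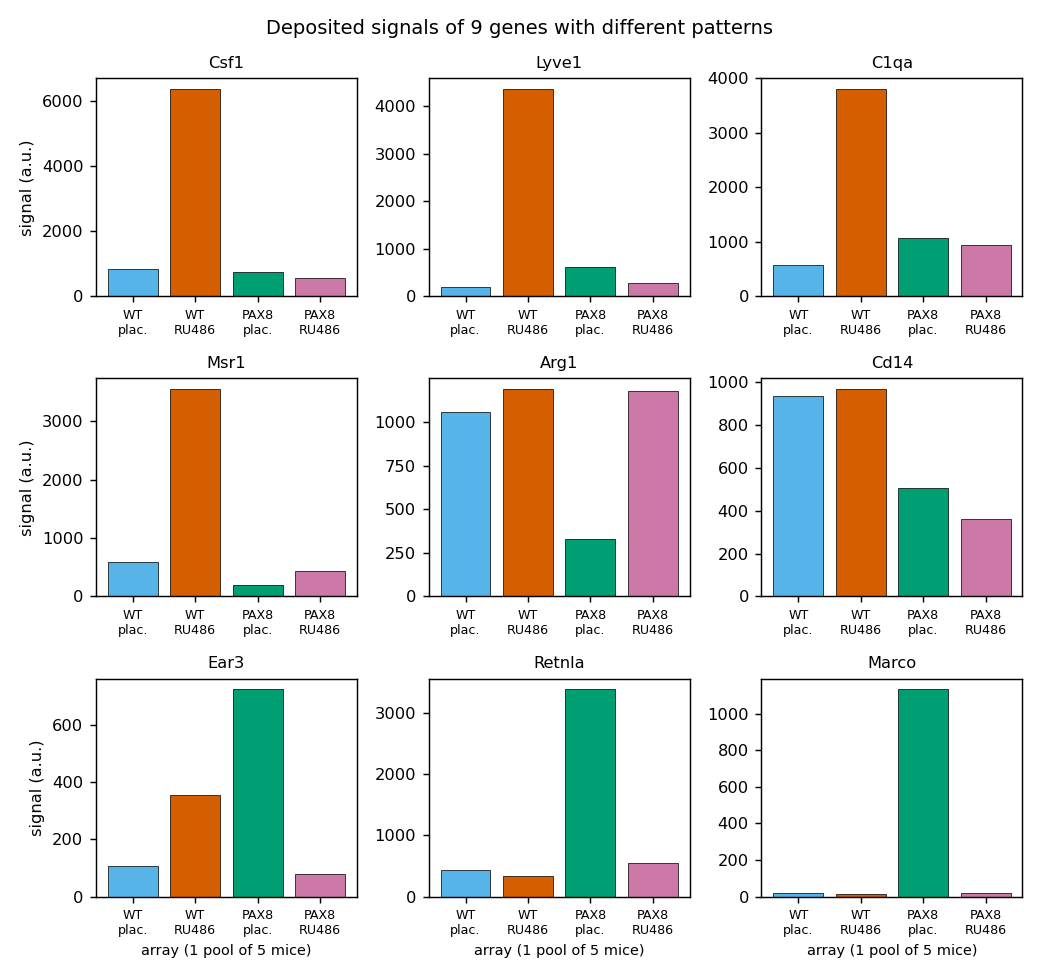
Deposited signals (arbitrary units, linear axis from 0) of 9 genes on the 4 arrays, each bar 1 pool of 5 mice with no error bar. Csf1, Lyve1, C1qa and Msr1 are highest in WT RU486, Arg1 is low in PAX8PPARg placebo, Cd14 is lower in both PAX8PPARg pools, and Ear3, Retnla and Marco are highest in PAX8PPARg placebo.

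PAX8PPARg and WT were then compared under each pellet. Under placebo, 6 members were higher by 2-fold in PAX8PPARg and 6 lower, against 4.28% and 5.50% of all genes, with a median of -0.09. At or above the median level the counts were 4 and 6, against 1.89% and 4.39%. Those higher were Marco (4.75), Retnla (2.71), Ear3 (2.39), Gpnmb (1.44), Lyve1 (1.43) and Siglec1 (1.03). Those lower were Arg1 (-1.83), Msr1 (-1.73), Clec4n (-1.71), Fcgr2b (-1.58), Cd14 (-1.05) and Fcgr3 (-1.04). Without centring, which shifts all genes by 0.19 in this comparison, 7 were higher and 4 lower, and under quantile normalization the counts were also 7 and 4.

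Under RU486, 37 of 45 members were at least 2-fold lower in PAX8PPARg than in WT and 0 were higher, against 10.1% lower and 10.8% higher among all genes. The median was -1.90. At or above the median level 31 of 36 were lower and 0 higher, against 10.2% and 7.23%. This comparison shares the WT RU486 array with the first, so the same high values enter both. Fcrls (-4.02), Lyve1 (-3.94), Cd83 (-3.57), Csf1 (-3.51) and F13a1 (-3.32) had the largest differences. Trem2 was at least 4.76-fold lower, with the PAX8PPARg RU486 value set to the background level. Within 2-fold were Lyz2 (-0.94), Gas6 (-0.96), Ctss (-0.77), Arg1 (-0.07), Marco (0.19), Gpnmb (0.62), Retnla (0.66) and Chil3 (0.66).

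The RU486 difference in PAX8PPARg was below that in WT by at least 2-fold for 34 of 45 members and above it for 1, Arg1 (1.76), against 12.1% and 15.6% of all genes. The median of this double difference was -2.03. At or above the median level the counts were 28 and 1 of 36, against 10.0% and 11.7%. Additive limma models with treatment and genotype over the 4 arrays, which have 1 residual degree of freedom and take the double difference as residual, called 0 of 6197 genes for either factor. Among 36 members fitted, the lowest Benjamini-Hochberg adjusted p from limma was 0.97 for treatment and 0.938 for genotype, and 6 and 9 had an unadjusted p under 0.05, against 278 and 273 of all genes. The background share called was 0% for both factors.

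Other genes of the macrophage programme, from lists that hold no member, were set beside these values. Of 34 further macrophage and monocyte genes measured, 24 were at least 2-fold higher and 2 lower with RU486 in WT (median 1.74), and 5 and 4 in PAX8PPARg (median -0.15). Cx3cr1, the fractalkine receptor gene, read 124, 1580, 130 and 137. Vsig4, a complement receptor of resident macrophages, read 18.3, 664, 4.5 and 20.5, with both PAX8PPARg values in the background range. Cd33, a sialic acid receptor gene, read 147, 1037, 147 and 90.6, and Ncf1, a subunit gene of the phagocyte oxidase, read 134, 932.5, 206 and 198. Signalling genes below CSF1R and the Fc receptors were higher by 2-fold in WT for 11 of 13 and in PAX8PPARg for 0, and the kinase genes Btk and Syk had WT differences of 2.56 and 1.98.

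Lysosomal genes of all cell types differed less, with 5 of 28 at least 2-fold higher in WT (median 0.61). Lgmn, the legumain gene, had the largest difference of these at 2.09. Of 15 myeloid transcription factor genes 4 were higher, among them Zeb2 (2.60), Irf8 (1.82) and Tfec (1.79), and 1, Id2 (-1.56), was lower. Among 15 further genes for the uptake of dying cells, 6 were higher and 3 lower. The cholesterol exporter gene Abca1 read 830, 3171, 1350 and 840.5, while Tyro3, a relative of Mertk, read 202, 51.2, 112 and 160.

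Markers of other cells were read on the same arrays. General leukocyte genes were at least 2-fold higher with RU486 in WT for 9 of 15 and lower for 1 (median 1.20), and in PAX8PPARg lower for 9 and higher for 0 (median -1.20). Their summed signal was 12364, 26691, 19359 and 10078, so the PAX8PPARg placebo pool was the second highest for leukocyte genes. It was also second highest for the summed macrophage members. There it stood less far above the WT placebo and PAX8PPARg RU486 pools, with 52670 against 45820 and 47948. Itgb2, the shared beta chain gene of leukocyte integrins, read 528, 2525, 791 and 526. Its PAX8PPARg difference of -0.44 was smaller in size than the median of these leukocyte genes. Dendritic cell and MHC class II genes had medians of 0.93 and -0.64.

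In WT the epithelial median was -3.23 (0 of 14 higher), the fibroblast median -0.15 (0 of 14 higher, 3 lower) and the endothelial median -0.27 (0 of 11 past 2-fold). Luminal, fibroblast and endothelial genes thus did not share the higher level of the macrophage genes on the WT RU486 array. Neutrophil genes had a median of -0.75 in WT and 1.79 in PAX8PPARg. In PAX8PPARg 7 of 11 were at least 2-fold higher, against 10.6% of all genes. Of the 11, 3, 5, 4 and 4 were within the background range on the 4 arrays, and on the PAX8PPARg arrays these included genes counted as higher. Each neutrophil median was the value of a gene within that range on an array compared, so both rest partly on background values. The part of neutrophils in the Arg1, Msr1 and Clec4n values was not tested. Mast cell genes had medians of 1.09 and 0.02, T and NK cell genes of -0.02 and -1.87, and B and plasma cell genes of 0.79 and -3.24. Of the 9 B and plasma cell genes, 5, 4, 1 and 7 were within the background range on the 4 arrays. Of the 13 T and NK cell genes 1, 2, 0 and 7 were, so these medians rest partly on background values. The part of a lower epithelial share of the tissue in the higher macrophage signals of the WT RU486 pool was not tested.

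**Figure D4:**
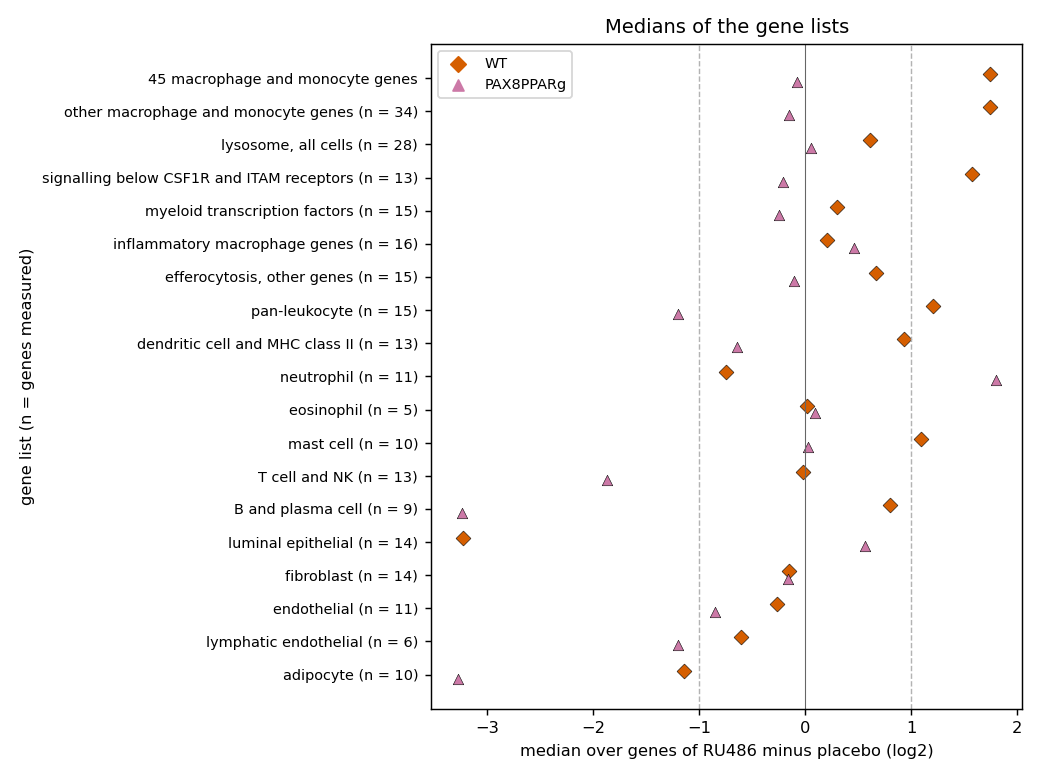
Median over genes of RU486 minus placebo (log2) for the 45 members and 18 other gene lists, diamonds for WT and triangles for PAX8PPARg; n is the number of genes measured, and dashed lines mark 2-fold. The members, the other macrophage genes, the signalling genes and the mast cell genes lie above 1 in WT and near 0 in PAX8PPARg, and the luminal epithelial list lies at -3.23 in WT.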

How the data were processed

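The authors deposited 1 probe set signal intensity per array on a linear scale. Per the labels' protocols, biotin-labelled cRNA came from RNA pooled from 5 mice. No source used here names the signal algorithm. Deposited intensities had a 2% trimmed mean of 500.1 to 500.2 per array, so they had been scaled. Probe sets were named by GEO's platform annotation: of 22626 non-control probe sets, 20380 had 1 symbol, 691 several and 1555 none.

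Signals were taken as log2(signal + 16), each array was centred on its median, and a gene's probe set with the highest mean was used. Genes past 2-fold were counted. Additive models were fitted with limma 3.58.1 (R 4.3.3) on the 6197 genes at or above the median level, with Benjamini-Hochberg adjustment at 0.05. Python 3.11.15 and numpy 2.4.6 were used, and both steps were tested on simulated data. The simulated noise did not come from the spread between mice, which is unknown. For limma the simulated treatment difference was the same in both genotypes, unlike that of most members. Every member is accounted for. Of each other list, the counts and median were taken, with values for at most 4 genes, those with the largest WT difference with RU486, and for cell type markers listed for each cell type. Genes named outside this rule are stated as such. Members and lists were chosen with earlier results of these data known. Other pseudocounts (1 and 64), scalings, probe set rules and filters were tried.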

Additional observations from a re-analysis of the deposited data

Results flagged for a closer look

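For 3 members the RU486 difference was at least 2-fold in opposite directions in the 2 genotypes, with 1 array in each group, so the difference between genotypes was not tested. The double difference, PAX8PPARg minus WT, was -4.44 log2 for Ear3, -4.15 for Fcrls and -3.21 for Cd86. In Ear3 it rests partly on the high PAX8PPARg placebo value of 728.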

How the results depend on the processing

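No paired analysis was possible because each group has 1 array. Over 8 other settings, of which the lack of a level filter applied to limma alone, and 2 more chosen after seeing the data (a floor at the highest bacterial control, and a call at 1.5-fold), 137 of 146 counts and medians stayed within 1.5 times the count or within the median SD between a gene's probe sets, and 9 moved. These 146 include the limma counts, which were all 0, and counts over 43 or 36 members set beside counts over 45. The share that stayed therefore overstates how stable the results were. In WT, members at least 2-fold higher with RU486 numbered 35 or 36 of 45 where all were used. This count was 33 of 43 without _s_at and _x_at probe sets and 30 of 36 at or above the median level. At 1.5-fold it was 39 of 45. The median of the members was 1.63 to 1.80. With a pseudocount of 1, the PAX8PPARg count higher with RU486 was 5 and the double difference was positive by 2-fold for 2. Without centring, the median for genotype under placebo was 0.10. Among genes above the median level only, 3 members were lower in PAX8PPARg. At 1.5-fold, 7 were higher and 9 lower with RU486 in PAX8PPARg, 11 were lower for genotype under placebo, 3 were higher for genotype under RU486 and 2 had a positive double difference. Without _s_at and _x_at probe sets, Trem2 reversed to -0.20 in WT, 0.76 for genotype under RU486 and 0.25 for the double difference, because only its dim probe set was left. The 0 calls by limma stayed at 0 in each other setting it was run in, with 4 to 6 members at an unadjusted p under 0.05 for treatment and 5 to 10 for genotype.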

Other observations

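Inflammatory genes that macrophages can express did not as a group share the pattern of the list. Of 16 such genes, 1 was at least 2-fold higher with RU486 in WT, the monocyte chemokine gene Ccl2, which read 274, 1503, 98.1 and 152. The inducible cyclooxygenase gene Ptgs2 read 566.5, 1067, 9.3 and 271, lowest in the PAX8PPARg placebo pool. In PAX8PPARg, 5 of the 16 were at least 2-fold higher with RU486 and 3 lower, against 10.6% and 7.02% of all genes. Some of these calls rest on values in the background range. Another 2 genes were chosen after their values were seen. Nos2, the inducible nitric oxide synthase gene, had signals in the background range in every pool. Mmp12, the macrophage elastase gene, read 726, 109, 149 and 995, a difference of -2.56 with RU486 in WT and 2.75 in PAX8PPARg, against the direction of most macrophage genes in WT.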
